A study of Bos taurus with 9 samples.

Results

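Solute carriers are membrane proteins, numbered into families, that move sugars, amino acids, fatty acids, metals, nucleosides, ions and mitochondrial metabolites across membranes. In muscle and fat they set how fuel enters the cell: insulin moves the glucose transporter of these tissues to the surface, and mitochondrial carriers exchange nucleotides and intermediates between matrix and cytosol. The genes described here were those with a probe set of exactly 1 annotated symbol that starts with SLC and a digit. There were 179 such genes on 252 probe sets, among 9155 named genes and 24016 probe sets tested, and each gene is given by its brightest probe set on average across the 9 arrays. The symbol rule also took SLC4A1AP and SLC7A6OS, which are not carriers, and the heavy chains SLC3A1 and SLC3A2, which partner with carriers.

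Messenger RNA was measured on 1-colour Affymetrix arrays of abdominal adipose tissue, subcutaneous adipose tissue and longissimus dorsi muscle, the skeletal muscle along the back. The animals were Yan yellow cattle bulls, 24 months old, and each tissue had 3 arrays. The labels count 9 bulls and do not tie samples to animals, so p-values measure only the spread between these samples. No treatment or genotype separates the groups.

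Levels are log2 of the deposited probe set intensities, and a tissue mean under 6 is taken as near background, where the size of a difference is not exact. The array medians were 5.89 in abdominal fat, 5.87 to 5.92 in subcutaneous fat and 5.75 to 5.79 in muscle. Adipocyte markers averaged 11.73 to 11.86 per array in abdominal fat, 11.46 to 11.66 in subcutaneous fat and 7.12 to 8.11 in muscle, and all 7 measured were higher in fat. Skeletal muscle markers averaged 6.27 to 7.33 in abdominal fat, 6.55 to 6.89 in subcutaneous fat and 11.96 to 12.28 in muscle. Of 9 measured, 7 were lower in fat, and CKM and MYH7 were higher by their brightest probe sets. Macrophage markers averaged 9.13 to 10.37 in abdominal fat, 9.13 to 10.22 in subcutaneous fat and 6.68 to 7.70 in muscle, and all 6 measured were higher in fat. Endothelial markers averaged 8.39 to 8.67 in abdominal fat, 7.92 to 8.16 in subcutaneous fat and 6.25 to 6.43 in muscle, with 6 of 7 higher in fat and none lower. Smooth muscle and pericyte markers had 5 of 6 higher, while none of 5 T cell and none of 2 nerve markers passed. Red blood cell markers had 4 of 5 lower in fat and lay near background, between 4.12 and 4.79 per array. As a sign of RNA quality, the GAPDH control probe sets gave a 3'/5' ratio of 1.26 to 1.62 in abdominal fat, 1.21 to 1.74 in subcutaneous fat and 0.94 to 1.01 in muscle. The same ratio for actin was 2.24 to 5.69 in abdominal fat, 3.86 to 8.17 in subcutaneous fat and 0.96 to 1.04 in muscle. The markers that passed and both ratios moved with the same contrast as the genes below, and their part in the results was not tested. In whole tissue, fewer cells of a type and less RNA per cell cannot be told apart.

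The first comparison asked how the carriers of adipose tissue, averaged over its depots, differ from those of muscle. Calls ran both ways in most family classes. SLC35G2, a member of the nucleotide sugar transporter family, had the largest positive difference (3.40 ± 0.19 on the log2 scale, SE), and SLC29A2, an equilibrative nucleoside transporter, the largest negative one (-2.82 ± 0.21). Of the 179 genes, 54 were higher and 52 lower in adipose tissue in the limma fit at an adjusted p of 0.05, and 73 did not pass. That is 59.2%, against 61.4% of all named genes by the same rule (32% higher and 29.5% lower), so solute carriers were called about as often as genes in general. The class counts below are to be read beside these shares, and most classes hold few genes. Their median difference was -0.02, as was that of all named genes. The higher genes differed by 0.32 to 3.40 with a median of 1.03, and 29 of them by at least 1. The lower genes differed by -2.82 to -0.36 with a median of -0.72, and 15 of them by at least 1 in size.

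Tissue means lay under 6 in every tissue for 72 of the 179 genes, and of these 5 were higher and 23 lower in fat (6.9% and 31.9%). Among all 2324 named genes that dim, 9.0% were higher and 25.9% lower. The other 107 carriers held 49 higher and 29 lower calls (45.8% and 27.1%), against 39.8% and 30.7% of the 6831 named genes over 6 in a tissue.

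**Figure D1:**
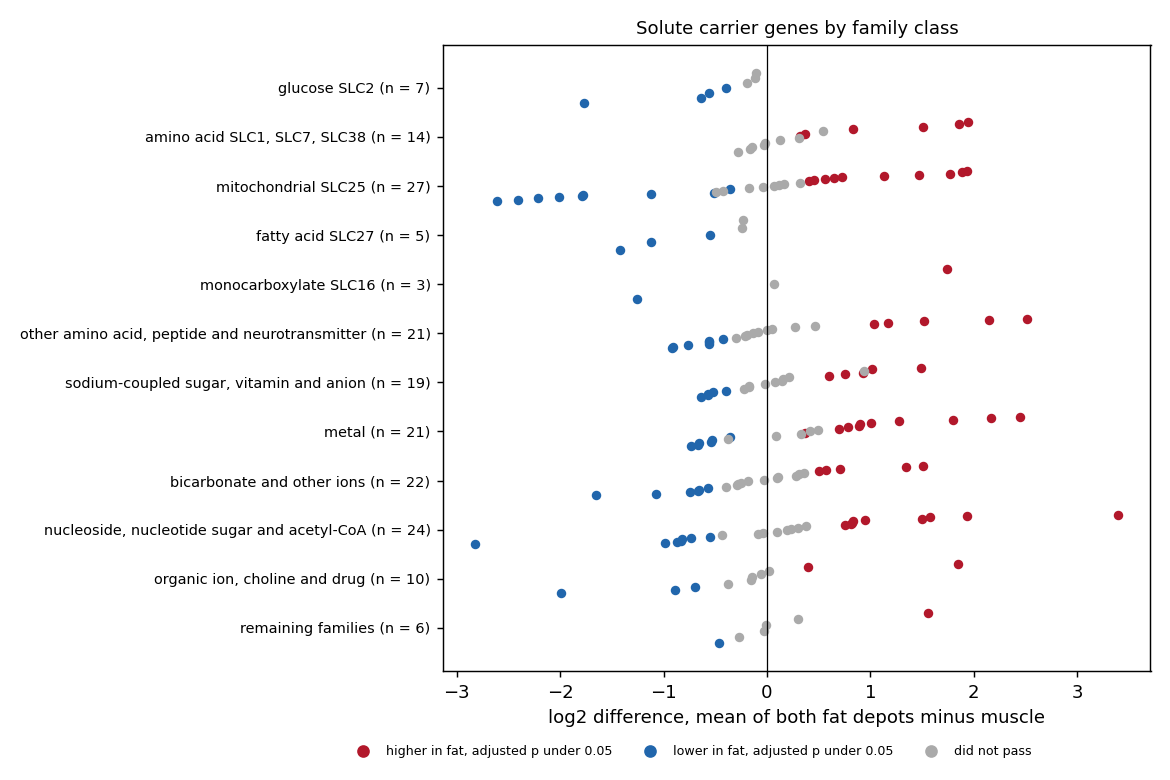
Log2 difference of each of the 179 solute carrier genes (mean of both fat depots minus muscle, horizontal axis) by family class (vertical axis), coloured by call. Points spread to both sides of 0 in most classes, while the 7 glucose and 5 fatty acid transporters lie below 0. The fatty acid transporters were all near background in fat.

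Among glucose transporters no gene was higher in fat. Of 7 SLC2 genes 4 were lower and 3 did not pass (57.1% called, against 61.4% of all named genes), with a median of -0.40. SLC2A4, the insulin-responsive transporter GLUT4, read 7.10, 7.10 and 6.93 in abdominal fat, 6.82, 6.07 and 6.69 in subcutaneous fat and 7.93, 8.57 and 9.17 in muscle. Every fat array lay below every muscle array, and the abdominal arrays lay above the subcutaneous ones. The difference was -1.51 ± 0.29 in abdominal fat (adjusted p = 0.00203) and -2.03 ± 0.29 in subcutaneous fat (adjusted p = 0.000322), and abdominal minus subcutaneous fat was 0.52 ± 0.29 and did not pass (adjusted p = 0.481).

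SLC2A1, the widely expressed basal transporter GLUT1, read 6.14, 6.03 and 6.17 in abdominal fat, 6.78, 6.65 and 6.83 in subcutaneous fat and 6.81, 6.54 and 7.64 in muscle. The abdominal arrays lay below all others, while subcutaneous fat and muscle overlapped. Against muscle it was lower in abdominal fat (-0.88 ± 0.24, adjusted p = 0.0129), and the subcutaneous difference of -0.24 ± 0.24 did not pass (adjusted p = 0.437). The depots did not differ past the threshold (-0.64 ± 0.24, adjusted p = 0.245). For both depots together the call (-0.56, adjusted p = 0.044) was lost without any array other than muscle replicate 2, with adjusted p between 0.0589 and 0.116. SLC2A8, an intracellular hexose transporter, was lower by a small amount (-0.40 ± 0.13, adjusted p = 0.0292), and that call was lost without abdominal replicate 1 or 2, subcutaneous replicate 1 or 2 or muscle replicate 1 or 2 (0.0532 to 0.125). SLC2A2, the transporter of liver and pancreatic beta cells, was dim everywhere, with fat means of 3.08 (abdominal) and 3.0 (subcutaneous), against 3.68 in muscle. Its call (-0.64) was lost without muscle replicate 1 or 2 (adjusted p = 0.0586 and 0.0581). SLC2A3, SLC2A5 and SLC2A6 were dim as well and did not pass.

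The sodium-coupled sugar transporters of family SLC5 had 4 of 7 lower and none higher, with a median of -0.52. Their highest tissue mean was that of SLC5A2, the renal glucose transporter, at 6.22 in muscle, against 5.71 in abdominal and 5.69 in subcutaneous fat, so this family lay at or near background. SLC5A9 (-0.64) lost its call without muscle replicate 1 (adjusted p = 0.0694), and SLC5A10 (-0.57) with the mean of its probe sets (0.0959).

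Genes that serve GLUT4 vesicles gave calls both ways. Of 5 measured, TRARG1, which helps traffic GLUT4 in adipocytes, was higher (4.37 ± 0.37). The vesicle fusion proteins VAMP2 (-1.20 ± 0.09) and STX4 (-0.82 ± 0.14) were lower. TBC1D4, the insulin-regulated Rab brake (-0.17), and ASPSCR1, a tether of stored vesicles (-0.04), did not pass. Over the 9 arrays, the named genes whose log2 values correlated best with SLC2A4 were PPP1R3C, a glycogen-targeting phosphatase subunit (Pearson r = 0.979), the carnitine transporter SLC22A5 (0.972), UBR2 (0.971), PLEKHB2 (0.969) and TSPYL4 (0.968). The 9 points are 3 arrays of each of 3 tissues, so they share the tissue difference, and r is a description.

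Fatty acid transport proteins, the SLC27 family, were not higher in fat by any of the 5 genes measured, and 3 were lower (median -0.55). The family lay at or near background: only the muscle mean of SLC27A1, at 6.27, was over 6. Among all named genes under 6 in every tissue, 9.0% were higher and 25.9% lower in fat. SLC27A1, or FATP1, an insulin-regulated acyl-CoA synthetase and fatty acid transporter, read 5.01, 5.31 and 5.17 in abdominal fat, 5.16, 5.07 and 5.14 in subcutaneous fat and 6.34, 6.53 and 5.93 in muscle. The groups did not overlap, and the difference was -1.12 ± 0.14 (adjusted p = 0.000101). Its other probe set gave -0.42 and did not pass (adjusted p = 0.0696).

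SLC27A6, the heart-enriched FATP6, was 2.80, 3.84 and 2.54 in abdominal fat, 2.96, 3.31 and 2.99 in subcutaneous fat and 4.18, 5.94 and 3.36 in muscle. All 9 arrays lay under 6, muscle replicate 2 stood highest and fat and muscle overlapped. Its call (-1.42 ± 0.49, adjusted p = 0.0334) was lost without abdominal replicate 1 or 3, subcutaneous replicate 1 or 3 or muscle replicate 1 or 2 (0.0588 to 0.13). SLC27A4, of small intestine and other tissues, was dim and lower by -0.55, a call lost without muscle replicate 2 (0.0982) or 3 (0.0584), with array weights (0.0985) and after quantile normalization (0.0514). SLC27A2 and SLC27A5, the liver forms, had tissue means of at most 3.05 on this scale and did not pass. SLC27A2 passed after centring (adjusted p = 0.0201), and SLC27A5 after centring (0.0208), with array weights (0.0257) and without muscle replicate 3 (0.0415).

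Other fatty acid uptake genes, of which 7 were measured, included 4 that were higher in fat: CAV1, the caveolar coat protein (2.02 ± 0.13), FABP4, the adipocyte fatty acid binding protein (1.79 ± 0.23), the scavenger receptor CD36 (1.78 ± 0.13) and lipoprotein lipase, LPL (0.74 ± 0.21). FABP3, the muscle fatty acid binding protein (-7.33 ± 0.22), and GOT2, which is mitochondrial aspartate aminotransferase (-1.80 ± 0.12), were lower. The acyl-CoA synthetase ACSL1 (0.30) did not pass.

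Monocarboxylate transporters carry lactate, pyruvate and ketone bodies. Of 3 SLC16 genes, 1 was higher, 1 lower and 1 did not pass. SLC16A3, the lactate exporter MCT4 of glycolytic muscle, read 5.40, 5.87 and 5.71 in abdominal fat, 6.14, 6.67 and 5.90 in subcutaneous fat and 7.26, 7.82 and 6.55 in muscle. Subcutaneous replicate 2 lay above muscle replicate 3, and the difference was -1.26 ± 0.27 (adjusted p = 0.00288). SLC16A13, a less studied family member, read 8.24, 9.04 and 8.33 in abdominal fat, 8.24, 8.32 and 8.33 in subcutaneous fat and 6.50, 6.78 and 6.75 in muscle, with no overlap between fat and muscle (1.74 ± 0.17, adjusted p = 2.31e-05). Of its other probe sets, the first gave 2.93 and the second -0.16, which did not pass. SLC16A1, or MCT1, differed by 0.07 ± 0.24 (adjusted p = 0.827). Of 3 partners, basigin, BSG, the chaperone of these transporters, was higher (1.19 ± 0.17), the lactate dehydrogenase subunit LDHA lower (-1.96 ± 0.27), and LDHB (0.32) did not pass.

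The amino acid families SLC1, SLC7 and SLC38 had no lower call. Of 14 genes 6 were higher in fat and 8 did not pass (42.9% called, against 61.4% of all named genes), with a median of 0.31. The 6 include SLC7A6OS, which is not a carrier. SLC7A7, a light chain that exchanges cationic for neutral amino acids, read 7.15, 8.23 and 7.80 in abdominal fat, 6.61, 7.45 and 7.68 in subcutaneous fat and 5.71, 5.52 and 5.37 in muscle. It differed by 1.95 ± 0.27 (adjusted p = 0.00019). SLC1A5, or ASCT2, which carries glutamine and other neutral amino acids, read 8.28, 8.73 and 8.41 in abdominal fat, 8.39, 8.47 and 8.23 in subcutaneous fat and 6.79, 6.21 and 6.70 in muscle, a difference of 1.86 ± 0.16 (adjusted p = 7.39e-06). For both genes every fat array lay above every muscle array.

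SLC1A3, the glutamate transporter known from astrocytes, read 7.60, 6.30 and 7.50 in abdominal fat, 6.85, 6.40 and 6.30 in subcutaneous fat and 4.76, 5.65 and 5.53 in muscle (1.51 ± 0.31, adjusted p = 0.00226). Abdominal replicate 2 stood below the other abdominal arrays, and all fat arrays stayed above muscle. SLC38A5, a glutamine transporter, was 0.83 ± 0.20 higher (adjusted p = 0.00579). Against muscle it passed in subcutaneous fat (1.18) and not in abdominal fat (0.49), and the depots did not differ past the threshold (adjusted p = 0.188). SLC7A1, the cationic amino acid transporter, had the same pattern at 0.63 in subcutaneous and 0.12 in abdominal fat (depots adjusted p = 0.109). Its joint call (0.37, adjusted p = 0.0221) was lost without muscle replicate 3 (0.071), after centring the arrays (0.0844), after quantile normalization (0.308) and with array weights (0.0658).

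The remaining genes of the SLC1, SLC7 and SLC38 families did not pass for both depots together. SLC38A2, which adapts to amino acid supply, was bright in every tissue at 11.36, 11.64 and 11.39 in abdominal fat, 11.12, 11.40 and 11.25 in subcutaneous fat and 11.23, 11.61 and 11.32 in muscle, and differed by -0.02 ± 0.13 (adjusted p = 0.882). SLC7A5, the leucine transporter LAT1, was dim and differed by 0.31 ± 0.19 (adjusted p = 0.188). Its heavy chain SLC3A2 differed by -0.13 ± 0.13 (adjusted p = 0.416). SLC1A4, a neutral amino acid exchanger, differed by 0.54 ± 0.23 (adjusted p = 0.0748), but passed with the mean of its probe sets (0.0133), without abdominal replicate 2 (0.0433) and without muscle replicate 3 (0.033). It was higher in subcutaneous fat alone (0.88 ± 0.27, adjusted p = 0.0219), and abdominal minus subcutaneous fat, at -0.67, missed the threshold (adjusted p = 0.279). Among 8 measured genes of amino acid sensing, CASTOR1, the arginine sensor (0.99 ± 0.10), and the Rag GTPase RRAGC (0.98 ± 0.16) were higher, and RRAGD (-4.10 ± 0.17) and the transcription factor ATF4 (-0.87 ± 0.15) lower.

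**Figure D2:**
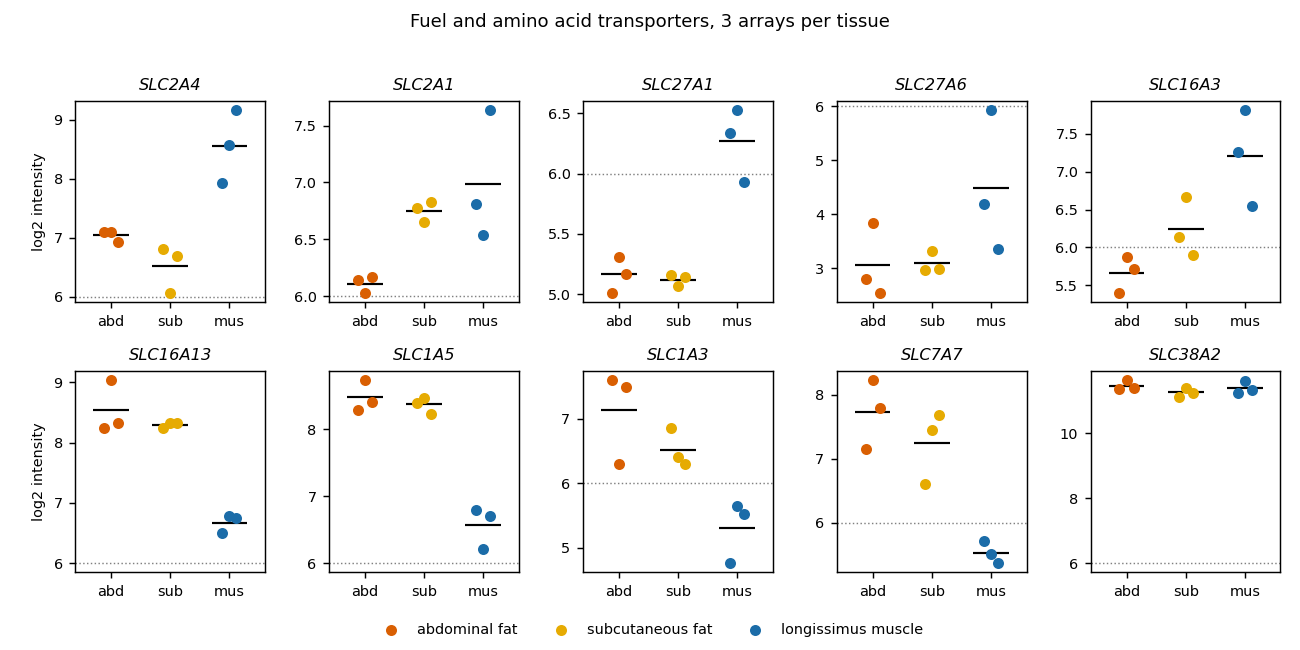
Log2 intensity (vertical axes, each with its own range) of 10 fuel and amino acid transporters on each array of abdominal fat, subcutaneous fat and muscle. Bars are means of 3 arrays and the dotted line marks 6; SLC2A4 and SLC27A1 have all fat arrays below muscle, and SLC1A5, SLC1A3, SLC7A7 and SLC16A13 have all of them above.

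The mitochondrial carriers, the largest family with 27 genes, split by member. In adipose tissue 10 were higher, 9 lower and 8 did not pass (70.4% called, against 61.4% of all named genes), with a median of 0.07. The 3 ADP/ATP carriers, which exchange cytosolic ADP for matrix ATP, differed in sign. SLC25A4, the form of heart and skeletal muscle, read 10.20, 10.08 and 10.64 in abdominal fat, 10.30, 10.34 and 10.53 in subcutaneous fat and 12.88, 12.92 and 13.07 in muscle (-2.61 ± 0.14, adjusted p = 4.49e-07). SLC25A5, the form of proliferating and many other cells, read 12.16, 11.76 and 10.77 in abdominal fat, 11.69, 11.45 and 11.66 in subcutaneous fat and 9.50, 9.48 and 10.10 in muscle (1.89 ± 0.27, adjusted p = 0.000264). SLC25A6, a ubiquitous form, read 11.77, 12.29 and 12.18 in abdominal fat, 11.76, 12.24 and 12.26 in subcutaneous fat and 10.28, 10.16 and 10.01 in muscle (1.94 ± 0.16, adjusted p = 6.65e-06). None of the 3 had overlapping fat and muscle arrays. These genes are close in sequence and whether their probes share signal was not tested. A further SLC25A6 probe set differed by 0.25 and did not pass (adjusted p = 0.171).

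Among carriers of the malate-aspartate shuttle, which brings reducing equivalents into mitochondria, SLC25A12 and SLC25A11 were lower in fat by their brightest probe sets. SLC25A13 was not measured by a probe set with 1 symbol. The aspartate/glutamate carrier SLC25A12 read 6.14, 6.05 and 6.13 in abdominal fat, 6.72, 6.89 and 6.65 in subcutaneous fat and 8.54, 9.35 and 8.64 in muscle (-2.41 ± 0.17, adjusted p = 2.67e-06). The oxoglutarate/malate carrier SLC25A11 read 7.75, 7.70 and 7.92 in abdominal fat, 7.78, 7.85 and 8.03 in subcutaneous fat and 10.05, 10.39 and 9.72 in muscle (-2.21 ± 0.15, adjusted p = 1.87e-06). Its other probe set gave -0.19 and did not pass (adjusted p = 0.221). For SLC25A12 the abdominal arrays lay below the subcutaneous ones, and that difference did not pass (-0.65, adjusted p = 0.157).

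Lower too were SLC25A30 (-2.01 ± 0.16), a carrier first described in kidney whose means lay under 6 in every tissue, and SLC25A25, the calcium-regulated ATP-Mg/phosphate carrier (-1.79 ± 0.12). SLC25A26, which imports S-adenosylmethionine, was lower by its brightest probe set (-1.78 ± 0.16), while another of its probe sets gave -0.25 and did not pass. The mitochondrial iron importer SLC25A37 differed by -1.12 ± 0.16. SLC25A42, a coenzyme A carrier, was dim and lower by -0.51, a call lost without muscle replicate 1 (adjusted p = 0.0753) or 2 (0.0911).

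The phosphate carrier SLC25A3, which supplies ATP synthase, was bright in all tissues and slightly lower in fat (-0.36 ± 0.11, adjusted p = 0.0215). The call was lost without muscle replicate 2 (0.0588) or 3 (0.0533) and after quantile normalization (0.071). SLC25A20, which exchanges acylcarnitine for carnitine, read 9.68 to 9.80 in abdominal fat, 9.87 to 9.90 in subcutaneous fat and 9.79 to 10.85 in muscle. It differed by -0.49 ± 0.19 (adjusted p = 0.0558), and passed without muscle replicate 3 (-0.74, adjusted p = 0.00329), the lowest muscle array, with array weights (0.0157), after centring (0.0239) and with dim probe sets removed (0.0471).

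The higher mitochondrial carriers included SLC25A1, which exports the citrate used for fatty acid synthesis. It read 9.50, 9.40 and 10.73 in abdominal fat, 10.10, 10.21 and 10.26 in subcutaneous fat and 8.27, 8.67 and 8.74 in muscle (1.47 ± 0.27, adjusted p = 0.00108). Abdominal replicate 3 stood above the other abdominal arrays, and no fat array overlapped muscle. SLC25A17, a peroxisomal member of the family that carries coenzymes, read 9.65, 9.62 and 10.05 in abdominal fat, 10.08, 9.98 and 10.27 in subcutaneous fat and 7.91, 8.44 and 8.18 in muscle (1.77 ± 0.15, adjusted p = 8.74e-06). SLC25A16 was 1.13 ± 0.17 higher, SLC25A21, an oxodicarboxylate carrier, 0.73 ± 0.19, and SLC25A44, a branched-chain amino acid carrier, 0.56 ± 0.12. SLC25A38, a glycine carrier needed for haem synthesis, was 0.41 higher and lost its call after quantile normalization (adjusted p = 0.163). The pyrimidine nucleotide carrier SLC25A33 (0.17 ± 0.32) and SLC25A34 (-0.04 ± 0.23) did not pass, although a dimmer SLC25A34 probe set was lower (-0.93, adjusted p = 0.00532).

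Genes for mitochondrial pyruvate and acyl entry that lie outside the family had 5 of 8 lower and none higher, with a median of -1.32. They were CPT1B, the muscle carnitine palmitoyltransferase (-3.46 ± 0.16), CRAT, carnitine acetyltransferase (-1.86 ± 0.13), the pyruvate carrier subunit MPC2 (-1.78 ± 0.12) and the outer membrane channels VDAC3 (-1.63 ± 0.11) and VDAC1 (-1.0 ± 0.11). MPC1 (-0.05), CPT2 (0.12) and VDAC2 (-0.36) did not pass.

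**Figure D3:**
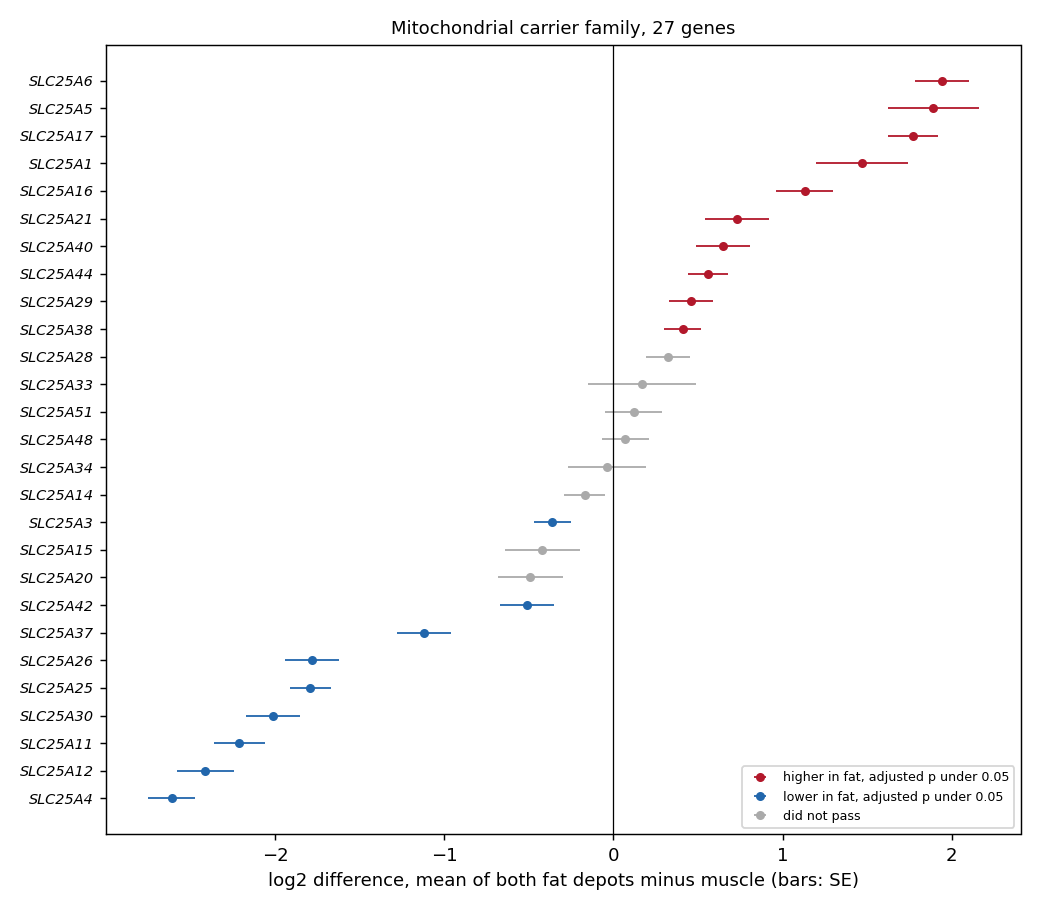
Log2 difference (mean of both fat depots minus muscle, horizontal axis) with its standard error for the 27 mitochondrial carrier genes (vertical axis), ordered by size. The family lies on both sides of 0, with SLC25A4 at -2.61 and SLC25A6 at 1.94 as its ends.

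Metal transporters had 10 of 21 higher, 6 lower and 5 not passing (76.2% called, against 61.4% of all named genes, median 0.42). The higher genes were mostly zinc importers of the SLC39 family, of which 8 of 13 were higher and 3 lower. SLC39A8, which imports zinc and manganese, read 8.82, 8.35 and 8.38 in abdominal fat, 7.04, 7.15 and 6.99 in subcutaneous fat and 5.18, 5.85 and 5.01 in muscle (2.45 ± 0.19, adjusted p = 4.32e-06). The 3 tissues did not overlap. SLC39A9, a zinc transporter of the Golgi and plasma membrane, read 9.05, 8.97 and 9.10 in abdominal fat, 9.55, 9.11 and 9.04 in subcutaneous fat and 6.83, 6.62 and 7.44 in muscle (2.17 ± 0.18, adjusted p = 7.96e-06). Its other probe set gave -0.06 and did not pass (adjusted p = 0.759).

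SLC39A7, which releases zinc from the endoplasmic reticulum, was 1.80 ± 0.16 higher, and SLC39A1, a plasma membrane zinc importer, 1.28 ± 0.12. SLC39A11 (1.01), the zinc exporter SLC30A5 of the secretory pathway (0.90) and SLC39A14, which also takes up iron (0.78), followed. The copper importer SLC31A1 was 0.89 ± 0.15 higher (adjusted p = 0.000761). The 6 lower genes were SLC30A2 (-0.73), the iron transporter SLC11A2 (-0.67), SLC39A3 (-0.66), SLC39A5 (-0.54), the Golgi zinc transporter SLC30A6 (-0.53) and SLC39A4, the intestinal zinc importer (-0.36). SLC30A2, SLC11A2, SLC39A3 and SLC39A5 had fat means between 5.26 and 5.93 and muscle means between 6.03 and 6.53, so they lay close to background. With muscle replicate 1 or 2 left out SLC30A6 no longer passed (adjusted p = 0.0541 and 0.0877), nor did SLC39A4 with replicate 2 left out (0.0675).

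Nucleoside, nucleotide sugar and acetyl-CoA transporters had 9 of 24 higher and 7 lower (median 0.21). The 2 main equilibrative nucleoside transporters differed in sign. SLC29A2 read 5.22, 5.58 and 4.84 in abdominal fat, 5.24, 5.74 and 5.05 in subcutaneous fat and 7.82, 8.37 and 8.12 in muscle (adjusted p = 3.1e-06), and was near background in fat. SLC29A1, which carries adenosine, read 10.12, 10.37 and 10.27 in abdominal fat, 10.43, 9.92 and 10.41 in subcutaneous fat and 8.73, 8.63 and 8.90 in muscle (1.5 ± 0.14, adjusted p = 1.45e-05). Fat and muscle did not overlap for either gene.

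SLC35G2 read 7.30, 7.77 and 6.84 in abdominal fat, 6.82, 7.14 and 6.82 in subcutaneous fat and 3.67, 3.59 and 3.88 in muscle (adjusted p = 5.94e-07). Its muscle arrays were near background, so the size is not exact. SLC35A5 (1.94 ± 0.13) and SLC35E2B (1.58 ± 0.25), of the same nucleotide sugar family, were also higher, though a dimmer SLC35A5 probe set gave 0.33 and did not pass. SLC35F5 (-0.99 ± 0.18), the ATP importer of the endoplasmic reticulum SLC35B1 (-0.83 ± 0.14), the dim concentrative nucleoside transporter SLC28A3 (-0.87 ± 0.15) and the acetyl-CoA transporter SLC33A1 (-0.55 ± 0.13) were lower. The other SLC28A3 probe sets, at -0.03 and -0.02, did not pass. SLC35A2, the UDP-galactose transporter, had probe sets that passed with opposite signs: the brightest was 0.81 higher (adjusted p = 0.00122) and the other lower (-0.51, adjusted p = 0.00304).

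Among organic ion and choline transporters 2 of 10 were higher and 3 lower (median -0.14). SLC22A5, or OCTN2, which takes up carnitine, read 6.04, 6.20 and 5.88 in abdominal fat, 5.61, 5.62 and 5.92 in subcutaneous fat and 7.36, 7.84 and 8.40 in muscle (-1.99 ± 0.20, adjusted p = 2.51e-05). SLC22A17, a receptor for lipocalin-2, read 8.24, 8.02 and 8.27 in abdominal fat, 8.05, 7.87 and 8.22 in subcutaneous fat and 6.23, 6.13 and 6.43 in muscle (1.85 ± 0.12, adjusted p = 1.76e-06). Fat and muscle arrays did not overlap for these genes. SLC22A23 (-0.89) and the renal anion transporter SLC22A6 (-0.70) were dim in every tissue. SLC44A2, a choline transporter-like protein, was 0.40 higher, a call lost without muscle replicate 1 (adjusted p = 0.0837) or 2 (0.0601), after centring (0.0832), after quantile normalization (0.249) and with the mean of its probe sets (0.0757).

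**Figure D4:**
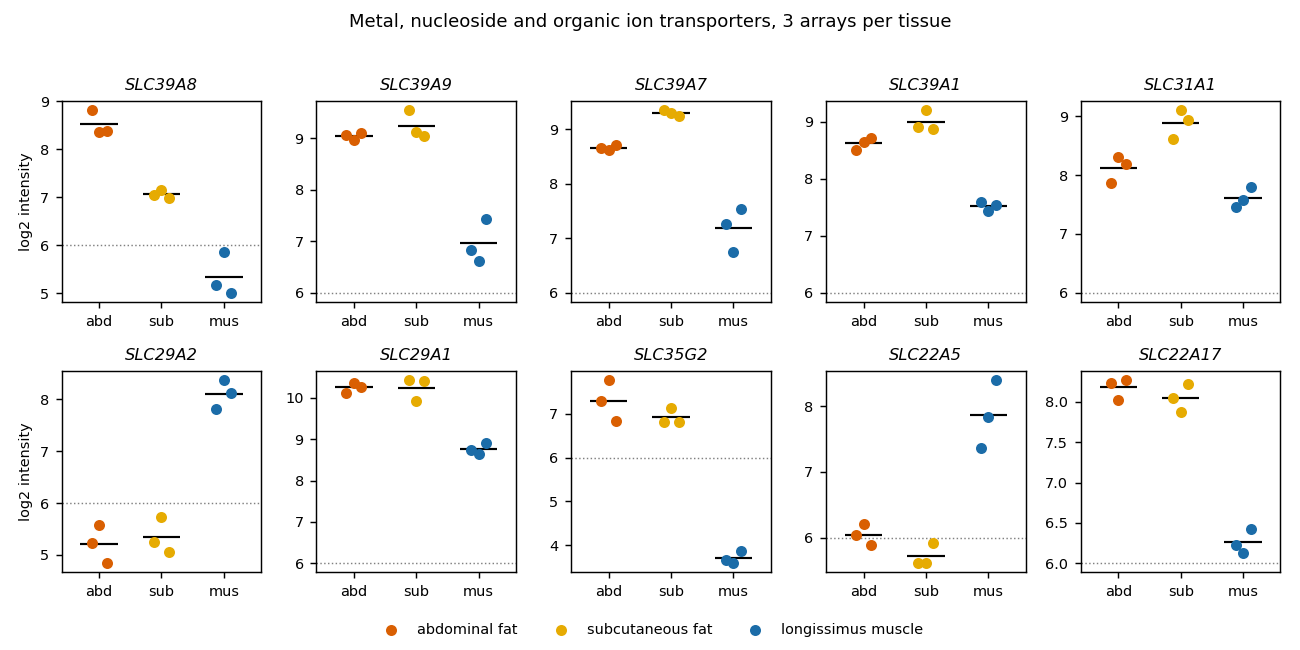
Log2 intensity (vertical axes, each with its own range) of 10 metal, nucleoside and organic ion transporters on each array of abdominal fat, subcutaneous fat and muscle, with means as bars and a dotted line at 6. SLC29A2 and SLC22A5 have all fat arrays below muscle and the other 8 have all fat arrays above it.

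Other amino acid, peptide and neurotransmitter carriers had 5 of 21 higher and 7 lower (median -0.13). Those higher were led by monoamine transporters. SLC6A2, which clears noradrenaline, read 7.77, 8.20 and 6.87 in abdominal fat, 7.16, 8.29 and 7.42 in subcutaneous fat and 5.04, 5.11 and 5.14 in muscle (2.52 ± 0.30, adjusted p = 7.6e-05). Its 2 dimmer probe sets gave -0.42 and -0.30 and did not pass, so the result rests on the brightest. SLC6A4, which clears serotonin, read 7.46, 8.25 and 7.61 in abdominal fat, 7.43, 7.09 and 6.46 in subcutaneous fat and 5.44, 5.22 and 5.03 in muscle (2.15 ± 0.23, adjusted p = 4.04e-05). The vesicular monoamine transporter SLC18A2 was dim in every tissue and 1.17 ± 0.22 higher. Nerve and Schwann cell markers, 2 measured of 4 listed, averaged 7.37 to 7.70 in abdominal fat, 7.70 to 8.13 in subcutaneous fat and 7.38 to 7.69 in muscle.

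The lysosomal sialic acid exporter SLC17A5 was 1.52 ± 0.12 higher and the dim proline transporter SLC6A20 1.04 ± 0.13. SLC43A2, a transporter of large neutral amino acids, was lower (-0.92 ± 0.23), as were the brain transporter SLC6A17 (-0.91 ± 0.17), which was dim, and the heavy chain SLC3A1 (-0.56 ± 0.11). SLC6A8, which takes up creatine, read 7.04, 6.47 and 7.27 in abdominal fat, 7.88, 7.65 and 7.48 in subcutaneous fat and 7.95, 7.76 and 8.45 in muscle. It was lower in abdominal fat (-1.13 ± 0.24, adjusted p = 0.00325) and did not pass in subcutaneous fat (-0.38 ± 0.24, adjusted p = 0.212). Abdominal minus subcutaneous fat, at -0.75, missed the threshold as well (adjusted p = 0.173).

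Transporters of bicarbonate, chloride, sodium, calcium, phosphate and protons had 5 of 22 higher and 6 lower (median -0.11). The 5 include SLC4A1AP, which is not a carrier. The sodium-bicarbonate cotransporter SLC4A4 (1.51 ± 0.26), the mitochondrial sodium/calcium exchanger SLC8B1 (1.35 ± 0.18), the anion exchanger SLC4A2 (0.71 ± 0.09) and the potassium-chloride cotransporter SLC12A4 (0.57 ± 0.11) were higher. The phosphate transporter SLC20A2 read 8.06, 7.24 and 7.75 in abdominal fat, 8.61, 7.48 and 8.08 in subcutaneous fat and 9.62, 8.88 and 10.07 in muscle (-1.65 ± 0.31, adjusted p = 0.00133). SLC9A5, a sodium/proton exchanger (-1.07 ± 0.10), the renal phosphate transporter SLC34A1 (-0.74 ± 0.16) and the anion exchanger SLC4A3 (-0.67 ± 0.13) were lower and had means under 6 in every tissue. Members of the vitamin and anion carrier families that were higher included the dicarboxylate transporter SLC13A3 (1.49 ± 0.15), the lysosomal SLC46A3 (0.93 ± 0.20) and the riboflavin transporter SLC52A2 (0.76 ± 0.10). The SLC52A2 call was lost with the mean of its probe sets (adjusted p = 0.321). In the remaining families SLC66A3 was higher (1.56 ± 0.27) and the dim SLC51B lower (-0.46 ± 0.12). Of the genes that are not carriers, SLC4A1AP was 0.50 higher, a call lost after quantile normalization (adjusted p = 0.0672), and SLC7A6OS 0.32 higher. The SLC7A6OS call was lost without abdominal replicate 2 or 3, subcutaneous replicate 1 or 3 or any muscle array (0.0502 to 0.127). It was also lost after quantile normalization (0.357), after centring (0.171) and with an intensity trend in the prior variance (0.0541).

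Probe sets of the same gene did not always give the same call. For 51 of the 179 genes there was more than 1 probe set, 73 dimmer ones in all. In adipose tissue against muscle 38 of these had the call of the brightest, 34 differed in whether they passed, and 1, of SLC35A2, passed with the opposite sign.

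Each depot was then compared with muscle alone. Both comparisons share the muscle arrays. Abdominal fat had 45 genes higher and 49 lower (52.5%, against 56.1% of all named genes, 29.0% higher and 27.1% lower). Subcutaneous fat had 55 higher and 44 lower (55.3%, against 56.2% of all named genes, 30.4% higher and 25.9% lower). The median difference was -0.05 in abdominal and 0.02 in subcutaneous fat. SLC39A7 differed from muscle by 1.48 in abdominal and 2.12 in subcutaneous fat. SLC25A4 differed by -2.65 in abdominal and -2.57 in subcutaneous fat.

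The last comparison asked which carriers differ between abdominal and subcutaneous fat. SLC39A8 was higher and SLC13A4 and SLC43A1 were lower in abdominal fat, and the other 176 genes did not pass. The 3 calls are 1.7% of the genes, against 1.5% of all named genes (0.808% higher and 0.688% lower). SLC39A8, whose array values are given above, differed by 1.46 ± 0.22 (adjusted p = 0.0232), with all abdominal arrays above all subcutaneous ones. The call was lost without any one of the 6 fat arrays (adjusted p = 0.0523 to 0.0709). Mesothelial markers averaged 6.43, 4.83 and 6.08 on the abdominal arrays, 4.76 to 5.09 on the subcutaneous arrays and 4.52 to 4.71 on the muscle arrays. None of the 4 measured passed between the depots. Endothelial markers averaged 8.39 to 8.67 on the abdominal and 7.92 to 8.16 on the subcutaneous arrays, without overlap. The averages of adipocyte markers (11.73 to 11.86 against 11.46 to 11.66) and of dim red blood cell markers (4.25 to 4.47 against 4.12 to 4.14) did not overlap either. Of the 7 endothelial markers 1, the angiopoietin receptor TEK, was higher in abdominal fat (1.09 ± 0.18, adjusted p = 0.0293), and CLDN5, at -0.13, had the opposite sign and did not pass. The part of any of these cell types in the SLC39A8 difference was not tested.

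SLC13A4, a sulfate transporter, read 3.88, 3.54 and 3.43 in abdominal fat, 5.83, 5.26 and 5.57 in subcutaneous fat and 3.88, 3.04 and 3.79 in muscle. Subcutaneous arrays stood above all others and still lay under 6. The call against subcutaneous fat (adjusted p = 0.00955) was lost with the mean of its 3 probe sets (-0.87, adjusted p = 0.0504), as was the call of both depots against muscle (adjusted p = 0.0954).

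SLC43A1, a transporter of branched-chain and other large neutral amino acids, read 6.42, 6.27 and 6.44 in abdominal fat, 7.03, 6.92 and 7.01 in subcutaneous fat and 6.86, 6.93 and 6.90 in muscle. Abdominal fat stood below both other tissues. The difference from subcutaneous fat was -0.61 ± 0.11 (adjusted p = 0.0346), and it was lost without any one of the fat arrays or muscle replicate 1 (adjusted p = 0.0542 to 0.123) and with an intensity trend in the prior variance (0.0572).

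The 3 next genes by p did not pass. SLC6A20 differed by -0.70 ± 0.15 (adjusted p = 0.0609), SLC31A1 by -0.76 ± 0.18 (adjusted p = 0.0709) and SLC17A5 by -0.53 ± 0.13 (adjusted p = 0.0969). With array weights all 3 passed, with adjusted p of 0.0233 for SLC6A20, 0.0257 for SLC31A1 and 0.0333 for SLC17A5. That setting raised the depot calls over all probe sets from 314 to 1034. For each of them abdominal arrays lay below subcutaneous arrays without overlap, which picking genes by p in this comparison favours. The arrays of SLC31A1 read 7.86, 8.31 and 8.19 in abdominal fat, 8.61, 9.11 and 8.94 in subcutaneous fat and 7.45, 7.58 and 7.80 in muscle, so that the tissues were ordered muscle, abdominal fat, subcutaneous fat.

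**Figure D5:**
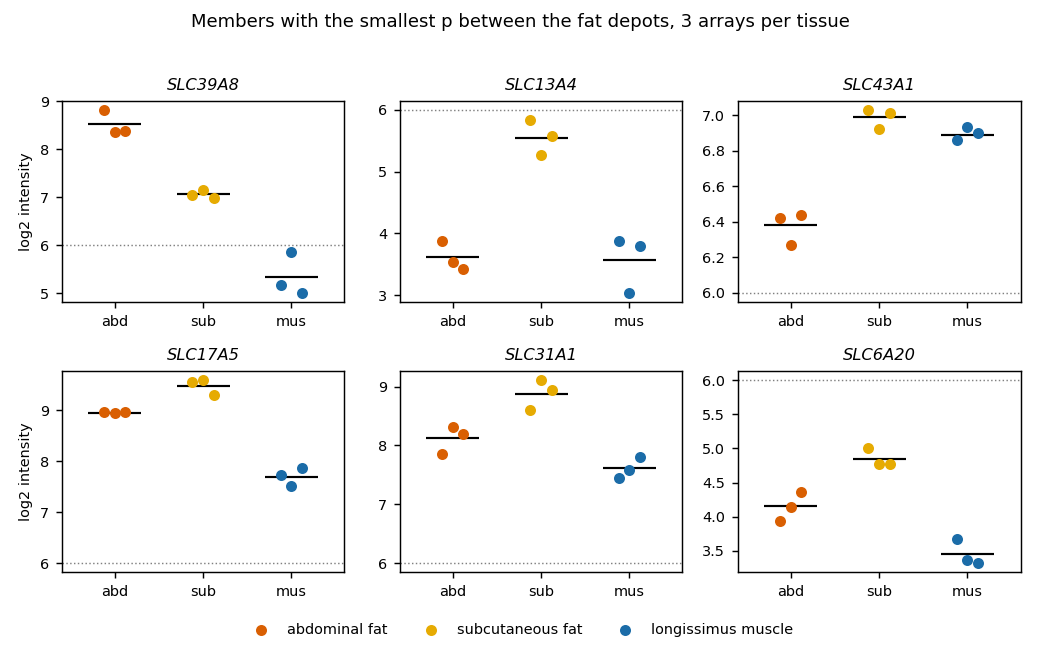
Log2 intensity (vertical axes, each with its own range) of the 6 carriers with the smallest p between the depots, on each array of abdominal fat, subcutaneous fat and muscle, with means as bars and a dotted line at 6. Abdominal and subcutaneous arrays do not overlap for any of the 6, and SLC39A8 is the member that stands higher in abdominal fat. The 6 were picked by p in this comparison, so the lack of overlap is no further support.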

How the data were processed

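Per the submitters' processing notes the arrays were processed with RMA. The table deposited by the authors gives 1 linear intensity per probe set and array. The log2 of the deposited intensities was taken, with no further normalization or filter. After removal of 112 control probe sets 24016 remained. Symbols came from the array annotation, updated by gene identifier through the RefSeq table of assembly ARS-UCD2.0. Of the probe sets 13263 were named that way, 29 kept the annotation's symbol, 86 had several genes and 10638 had none.

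One limma model (version 3.58.1, R 4.3.3) with a mean for each tissue used all 9 arrays, with 6 residual and 3.752 prior degrees of freedom. Tests were two-sided, p-values were adjusted by Benjamini-Hochberg over the 24016 probe sets, and an adjusted p under 0.05 passed. Each difference is given ± its moderated SE. No arrays held identical values. The number of arrays limits the precision. Figures were drawn with matplotlib 3.10.9 in Python 3.11.15.

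The members and lists were chosen with earlier results of these data known. Named were up to 5 passing genes each way in the glucose, amino acid, mitochondrial, fatty acid and monocarboxylate groups, up to 4 each way in other classes, the 6 smallest p between depots, and 37 fixed genes, 28 of them measured. Named after their values were seen were SLC1A4, SLC2A6, SLC3A2, SLC4A1AP, SLC7A6OS, SLC25A21, SLC25A26, SLC25A37, SLC25A38, SLC25A44, SLC30A5, SLC30A6, SLC33A1, SLC39A4, SLC39A11 and SLC39A14. SLC35A2 was named because its probe sets passed with opposite signs. The alternatives tried were array weights, centring, quantile normalization, an intensity trend or robust estimate for the prior variance, a filter on dim probe sets, the mean of a gene's probe sets, a stricter threshold, the title number as a block, only the arrays compared, and each array left out. The fit was tested on simulated data.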

Additional observations from a re-analysis of the deposited data

Results flagged for a closer look

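For 3 carriers the difference from muscle was not the same in both fat depots, by the test of abdominal minus subcutaneous fat (limma). SLC39A8 stood 3.17 above muscle in abdominal fat and 1.72 above it in subcutaneous fat, and the depots differed by 1.46. SLC43A1 differed from muscle by -0.52 in abdominal fat and by 0.09 in subcutaneous fat, and the depots by -0.61. SLC13A4 differed from muscle by 0.05 in abdominal fat and by 1.99 in subcutaneous fat, and the depots by -1.94. None of the 3 depot calls held under every alternative. Those of SLC39A8 and SLC43A1 were lost without any one of the fat arrays and with the title number as a block (adjusted p = 0.0794 and 0.143). SLC13A4 lay near background, and its call was lost with the mean of its probe sets (0.0504).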

How the results depend on the processing

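The counts of called carriers stayed within 1.5 times of the reported ones for adipose tissue and for each depot against muscle under every alternative run. Those against muscle ranged from 93 to 111 (adipose), 78 to 97 (abdominal) and 83 to 105 (subcutaneous) with each array left out. Centring the arrays moved the median difference of all probe sets in adipose tissue against muscle to -0.18, against -0.06 as deposited. The share of called probe sets that were higher became 39.2%, against 49.8%. Centring turned 54 higher and 52 lower carriers into 48 and 65. Removing dim probe sets left 101 carriers, of which 48 were higher and 25 lower, so 65.8% of their calls were higher. The same filter left 12698 probe sets in all, of which 8977 were called, and 59.5% of those calls were higher. Between the depots the 3 calls became 10 with array weights and 6 with only the fat arrays. Over all probe sets the 314 depot calls became 1034 with array weights and 358 with only the fat arrays. The carrier calls were 2 each with the filter, the trend or the mean of probe sets, and 1 at an adjusted p of 0.01. Leaving out each array gave 1 to 5.

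The leading number of the sample titles was shared by arrays of different tissues, except that of abdominal replicate 3, which no other array carried. The deviations of same-numbered arrays from their tissue means correlated at 0.043 to 0.362, highest between the fat depots (0.33 and 0.362). Arrays with different numbers correlated at -0.324 to 0.17, the highest being muscle replicate 3 with abdominal replicate 3. The deviations of the 3 arrays of a tissue cancel out, so these values depend on each other. They neither establish nor exclude that same-numbered arrays share an animal. With that number as a replicate block, the called carriers became 100 in adipose tissue, 79 in abdominal fat and 102 in subcutaneous fat against muscle, and 1 between the depots. The block gave abdominal replicate 3 a term of its own, so that array did not enter the comparisons of tissues. Leaving it out without the block gave 78 in abdominal fat against muscle and 1 between the depots. The effect of the block and the loss of that array cannot be told apart here. Among the genes named in the text, the calls lost under the block were those of SLC2A1, SLC7A1, SLC7A6OS, SLC27A4 and SLC30A6 in adipose tissue against muscle, and of SLC39A8 and SLC43A1 between the depots, and SLC7A5 in adipose tissue against muscle passed under it (0.44, adjusted p = 0.045).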
